A study of Mus musculus with 6 samples.

Results

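Amino acid transporter genes were taken here as the genes of the solute carrier families Slc1, Slc3, Slc6, Slc7, Slc36, Slc38 and Slc43, selected by symbol and not by any measured value. They numbered 60 of the 19938 genes tested. Their transcripts were compared between CD73+CD105+ and CD73+CD105- cells (3 arrays each) of primary mouse bone marrow, which was dissociated and sorted by flow cytometry straight into lysis buffer. All samples were negative for CD45, a leukocyte antigen, and for Ter119, an antigen of the red cell lineage, and positive for CD73, an ectoenzyme that makes adenosine. The populations differed in CD105, the TGF-beta co-receptor endoglin. No agent or genetic change is named in the labels, and the sources used here do not give strain, age or the number of animals. The titles call the samples biological replicates and the design text speaks of sorting in triplicate, with no word on whether the animals differed, and a p-value therefore reflects how far these 6 samples scatter, which may be technical.

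Amino acid transporters of the plasma membrane take up, release or exchange amino acids, several of them driven by the sodium gradient. System A carriers of the Slc38 family concentrate small neutral amino acids such as alanine and glutamine, and exchangers of the Slc7 family, each held at the membrane by an Slc3 heavy chain, trade these for leucine, other large amino acids or cystine. Other members work on the lysosome, where amino acids are sensed by the growth kinase complex mTORC1, and stromal cells such as chondrocytes and osteoblasts draw on these carriers to make collagen. Some carriers of the Slc6 family move taurine, betaine, creatine or neurotransmitters rather than protein amino acids, and the rule kept them.

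Each value is a log2 expression level of 1 probe set a gene, and a difference is CD73+CD105+ minus CD73+CD105-. Array medians lay between 6.27 and 6.35, and over all genes the standard error had a median of 0.0928. Values of different genes come from different probes and give no order of transcript amounts. The only yardstick for a low value was 6.01, the 95th percentile of 1190 genes for smell and pheromone receptors (averaged over arrays), called the receptor percentile here, since marrow is not known for using these genes. Eng, which encodes CD105, differed by 1.76 (SE 0.15, limma adjusted p = 0.00322) and Nt5e, which encodes CD73, by -0.26 (SE 0.086, adjusted p = 0.183). The replicate 1 arrays of both populations stood apart as a pair. Over the genes tested their mean all but equalled that of the other 4 arrays (SD of the gap 0.0423), while the 8 other pairs of arrays across populations gave an SD of at least 0.122. No label describes this, and whether the deposited values were adjusted for a batch after RMA was not tested; such an adjustment could make the standard errors and p-values too small. With a batch term for replicate 1 in the limma fit 101 genes passed the threshold, against 363 without it. Values from replicates 2 and 3 alone are therefore given beside the differences that matter most.

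None of the 60 transporter genes passed the threshold, a Benjamini-Hochberg adjusted p under 0.05 in limma (0 genes; the lowest adjusted p was 0.119), where 1.82% of all genes tested passed. At an unadjusted p under 0.05 there were 8 members (13.3%), against 17.7% of all genes. Lower in CD73+CD105+ cells were 6 of the 60 members, against 1812 of the 19938 genes (9.09%). Higher were 2 of the 60 members, against 1710 of the 19938 genes (8.58%). The 3 arrays of one population all lay above the 3 of the other in 11 members, 8 lower (13.3%, against 12.9% of all genes) and 3 higher (5%, against 10.7%). A single gene with 3 arrays against 3 cannot reach an exact two-sided permutation p below 0.10.

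Differences ranged from -0.64 for Slc6a12 to 0.51 for Slc36a1, with a median of -0.040 against -0.020 over all genes, and 41 of the 60 (68.3%) lay below 0 against 55.6% of all genes. The median was -0.021 with the arrays quantile normalized again and -0.028 with each array centred on its median. The unadjusted 95% interval stayed within a 2-fold difference in either direction for 59 of the 60, Slc6a12 being the exception, and for 19342 of the 19938 genes. In 24 members both group means lay below the receptor percentile, and the remaining 36 stood above it in at least 1 population.

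**Figure D1:**
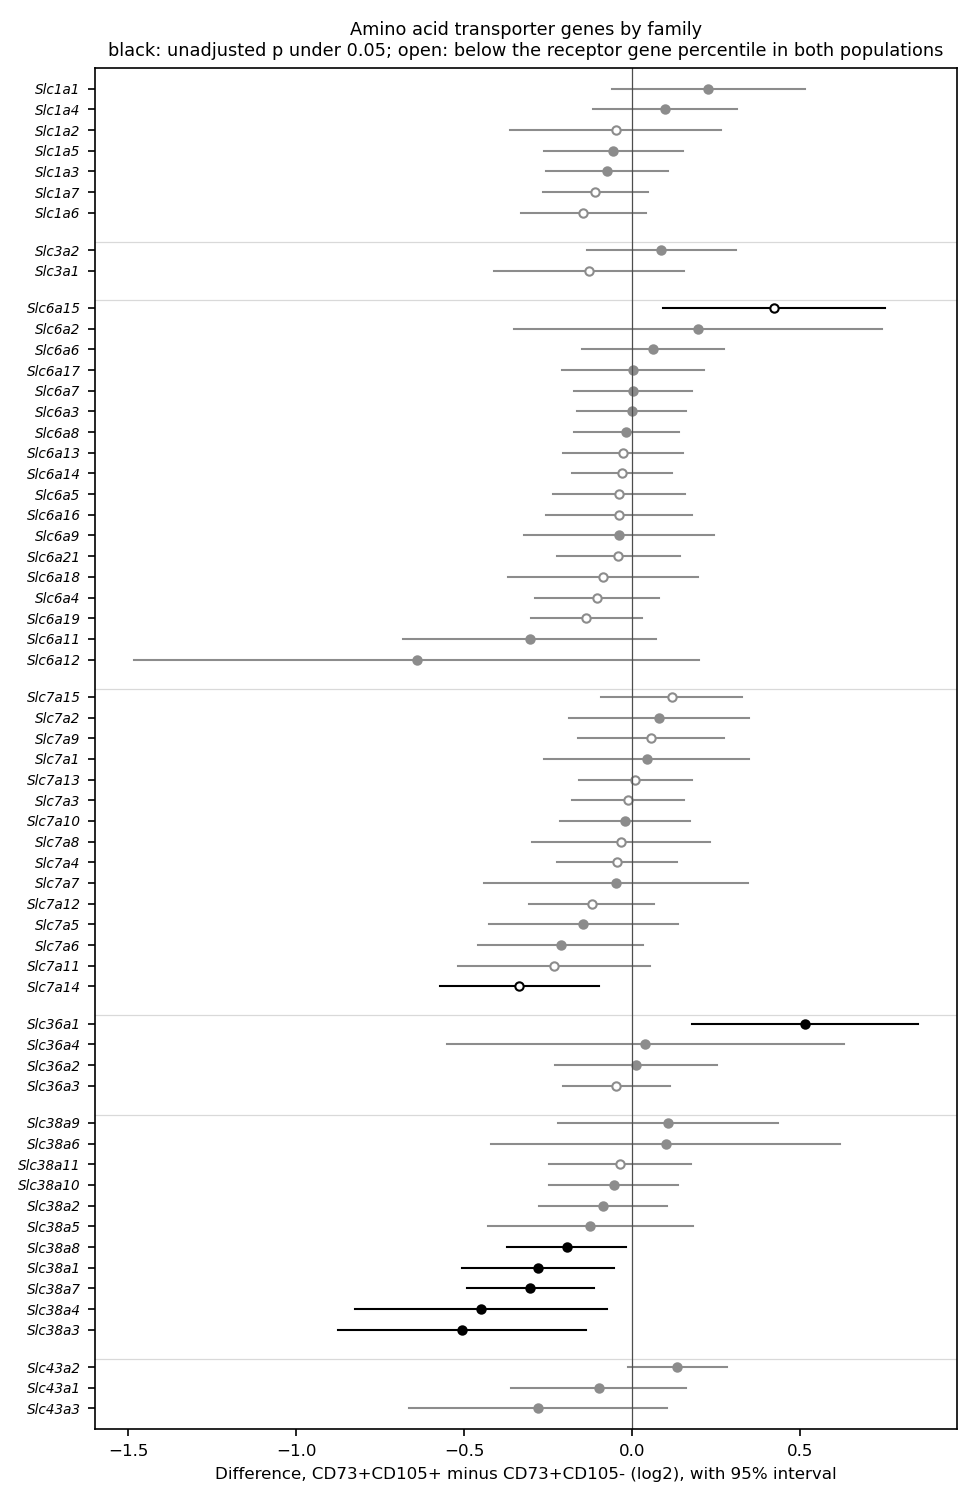
Difference between the populations (log2, CD73+CD105+ minus CD73+CD105-; points) with its unadjusted 95% interval (lines) for the 60 transporter genes, grouped by family. The 8 genes in black have an unadjusted p under 0.05, 5 of them in the Slc38 family and left of 0; open points lay below the receptor percentile in each population.

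The Slc38 family, sodium-coupled neutral amino acid carriers with glutamine as a common substrate, held 5 of the 8 genes with an unadjusted p under 0.05, all lower in CD73+CD105+ cells. That was 5 of 11 measured Slc38 genes (45.5%), against 9.09% of all genes, and none of the 5 passed after adjustment. The family was singled out after its values were seen. Of the 11 differences 9 lay below 0, with a median of -0.12, and 9 did so under both other scalings of the arrays. With the replicate 2 and 3 arrays alone 10 lay below 0, with a median of -0.14, and 2 had an unadjusted p under 0.05. With any 1 array left out 8 to 10 lay below 0 and 3 to 5 had such a p, 5 of them only without CD73+CD105+ replicate 2.

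Slc38a3, the system N carrier SNAT3, which moves glutamine, histidine and asparagine in either direction, stood at 9.37, 9.70 and 9.16 in CD73+CD105- replicates 1, 2 and 3. In CD73+CD105+ replicates 1, 2 and 3 it stood at 8.98, 9.05 and 8.68. Every CD73+CD105- array lay above every CD73+CD105+ array, a gap that was narrow between the lowest of the former and the highest of the latter. The group means were 9.41 ± 0.27 and 8.90 ± 0.20 (SD, n = 3 each), a difference of -0.51 (SE 0.16, limma adjusted p = 0.163), or 1.42-fold lower. It was -0.57 in replicates 2 and 3 alone (limma adjusted p = 0.515).

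Slc38a4 encodes SNAT4, a system A carrier that also takes cationic amino acids. It read 9.74, 10.16 and 9.86 in the CD73+CD105- arrays and 9.66, 9.58 and 9.17 in the CD73+CD105+ arrays. The groups did not overlap, though CD73+CD105- replicate 1 and CD73+CD105+ replicate 1 were close together. The difference was -0.45 (SE 0.16, limma adjusted p = 0.209), or 1.37-fold lower, and -0.64 in replicates 2 and 3 alone (limma adjusted p = 0.405).

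The other system A genes were Slc38a1 (SNAT1) and Slc38a2 (SNAT2, the form that cells induce when amino acids run short). In the RefSeq table Slc38a1, Slc38a2 and Slc38a4 follow each other on the chromosome with no other protein-coding gene between them. Slc38a1 read 9.50, 9.39 and 9.57 in CD73+CD105- and 9.07, 9.37 and 9.18 in CD73+CD105+ arrays, a difference of -0.28 (SE 0.097, limma adjusted p = 0.2). Its groups were barely separated, since CD73+CD105+ replicate 2 lay just under the lowest CD73+CD105- array, and its second probe set differed by -0.33. Slc38a1 was at -0.21 in replicates 2 and 3 alone (limma adjusted p = 0.662). Slc38a2 read 11.44, 11.40 and 11.50 against 11.32, 11.49 and 11.27, with overlapping groups. Its difference was -0.086 (SE 0.081, 95% interval -0.28 to 0.11, limma adjusted p = 0.63), so of the neighbouring genes the 2 outer ones had an unadjusted p under 0.05 and the middle one did not. Whether the genes differ from each other in their response was not tested.

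Slc38a7 encodes SNAT7, which exports glutamine and asparagine from lysosomes. It read 6.97, 6.82 and 6.85 in CD73+CD105- and 6.52, 6.52 and 6.69 in CD73+CD105+ arrays, without overlap. The difference was -0.30 (SE 0.081, limma adjusted p = 0.119), the lowest adjusted p of all members, and -0.23 in replicates 2 and 3 alone (limma adjusted p = 0.598). Slc38a8, a glutamine carrier known from the eye, lay about the receptor percentile, at 6.02 ± 0.03 against 5.83 ± 0.099 (SD, n = 3 each). Its difference was -0.19 (limma adjusted p = 0.242), and -0.23 in replicates 2 and 3 alone (limma adjusted p = 0.603).

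The remaining Slc38 genes had overlapping groups. Slc38a5, the other system N carrier of the plasma membrane, differed by -0.12, Slc38a10 by -0.054 and Slc38a11 by -0.036, the last below the receptor percentile in each population. Slc38a6 differed by 0.10 and Slc38a9, the lysosomal arginine sensor that signals to mTORC1, by 0.11. Slc38a9 was at -0.080 in replicates 2 and 3 alone, and Slc38a6 at -0.14 without CD73+CD105- replicate 2. CD73+CD105- arrays of Slc38a6 ranged from 6.57 to 7.47, a spread wider than any group difference in the family.

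Chondrocyte markers also had lower values in the CD73+CD105+ arrays. The differences of all 8 measured markers (Acan, Col2a1, Col9a1, Col11a1, Sox9, Comp, Matn3 and Hapln1) lay below 0, with a median of -0.27. After adjustment 0 passed, and 5 (62.5%) had an unadjusted p under 0.05 in limma, against 9.09% of all genes called in that direction. The mean level of the 8 markers per array was 11.9 to 12.2 in CD73+CD105- and 11.6 to 11.9 in CD73+CD105+ cells. None of the 8 lay near background in either population. Their part in the Slc38 values was not tested, and in bulk samples fewer cells of a type and less RNA per cell cannot be told apart.

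**Figure D2:**
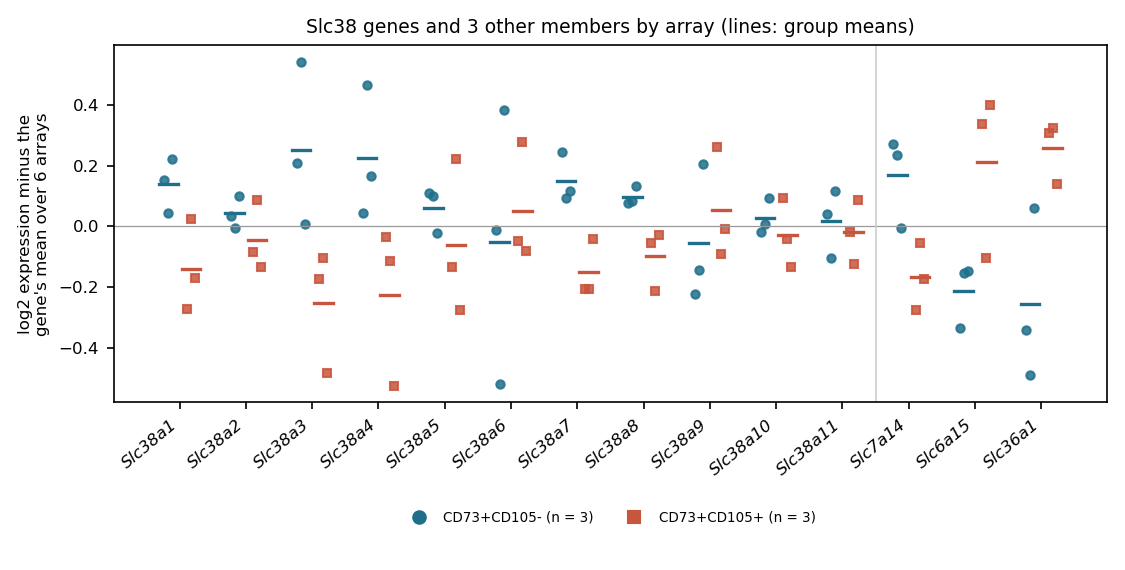
Log2 expression in each array minus the gene's own mean over the 6 arrays, for the 11 Slc38 genes and, right of the line, 3 other members with an unadjusted p under 0.05; circles are CD73+CD105- and squares CD73+CD105+ arrays (n = 3 each, replicates 1 to 3 from left to right), short lines the group means. The groups do not overlap in Slc38a1, Slc38a3, Slc38a4, Slc38a7, Slc38a8, Slc7a14, Slc6a15 and Slc36a1, and overlap in the other 6.

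Slc3a2 and Slc3a1 encode the heavy chains that carry Slc7 light chains to the membrane. Slc3a2 (CD98) read 9.75, 9.83 and 9.83 in CD73+CD105- arrays and 9.93, 10.03 and 9.71 in CD73+CD105+ arrays. The CD73+CD105+ arrays held both its highest and its lowest value, and the difference of 0.087 (SE 0.094, 95% interval -0.14 to 0.31, limma adjusted p = 0.683) did not pass. Slc3a1 (rBAT), known from kidney and gut, lay below the receptor percentile in each population, at 5.34 ± 0.11 and 5.21 ± 0.21 (SD, n = 3 each), as did its partners Slc7a9 (5.15 and 5.20) and Slc7a13 (5.39 and 5.40).

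Among the partners of Slc3a2, the leucine exchanger gene Slc7a5 (LAT1) read 9.42, 9.68 and 9.59 against 9.53, 9.18 and 9.54, with overlapping groups and a difference of -0.15 (SE 0.12, 95% interval -0.43 to 0.14). Without CD73+CD105+ replicate 2, its lowest array, the difference was -0.028, and in replicates 2 and 3 alone it was -0.27. Slc7a6 and Slc7a7 encode the exchangers y+LAT2 and y+LAT1, which release cationic amino acids for neutral ones. They differed by -0.21 (SE 0.10, limma adjusted p = 0.344) and -0.048 (SE 0.17, adjusted p = 0.916). Slc7a7 differed by 0.19 in replicates 2 and 3 alone. Slc7a8 (LAT2) differed by -0.032, below the receptor percentile in each population, and Slc7a10 (Asc-1, a carrier of small neutral amino acids and D-serine) by -0.022. Both had overlapping groups.

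Slc7a11 encodes xCT, which imports cystine for glutathione synthesis in exchange for glutamate. It read 4.85, 4.65 and 5.09 in CD73+CD105- and 4.62, 4.53 and 4.74 in CD73+CD105+ arrays, all below the receptor percentile. The difference was -0.23 (SE 0.12, 95% interval -0.52 to 0.055, limma adjusted p = 0.376), and the groups overlapped.

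**Figure D3:**
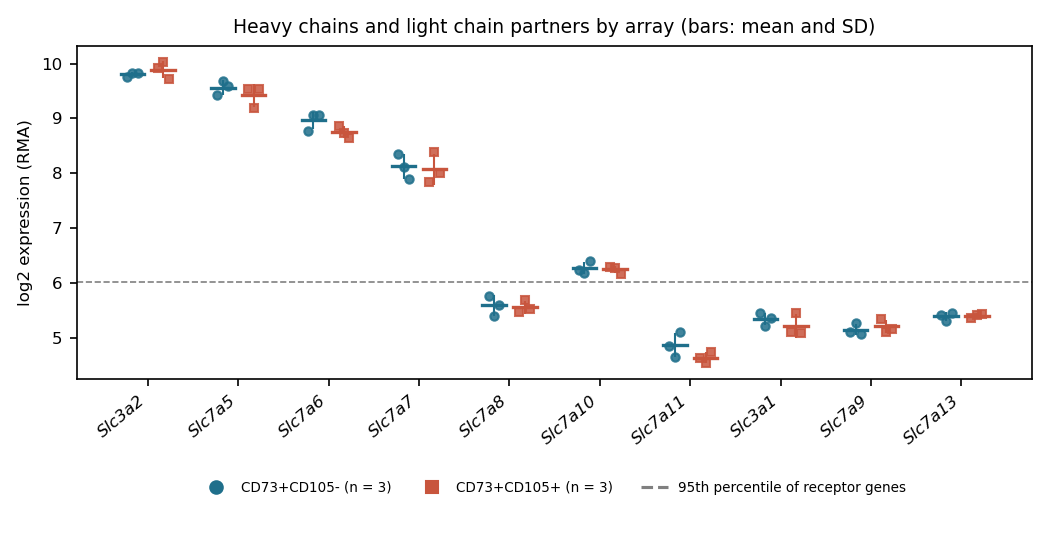
Log2 expression by array of the heavy chain genes Slc3a2 and Slc3a1 and of their light chain partners (circles CD73+CD105-, squares CD73+CD105+, n = 3 each; short lines the mean, vertical lines the SD, the dashed line the receptor percentile of 6.01). Slc3a2, Slc7a5, Slc7a6, Slc7a7 and Slc7a10 lay above the dashed line in every array, and Slc7a8, Slc7a11, Slc3a1, Slc7a9 and Slc7a13 lay below it in every array; the groups overlapped in each gene.

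Slc7a11 is also a textbook target of ATF4, the transcription factor that cells make when amino acids run short and that pairs with C/EBP factors on a composite element. Promoter windows from RefSeq (GRCm38.p6, 250 bases before to 50 after a start) were at hand for 43 of the 60 members and were searched on both strands for the element's core, TTGCATCA or TTTCATCA, spellings that cannot overlap. Of the 43 members 3 held a core (6.98%), against 2.16% of the 27025 genes with a window. They were Slc7a11, Slc1a4 and Slc7a7. The stretches are printed in the direction of the gene with each core in capitals, a core on the opposite strand showing as TGATGCAA or TGATGAAA. Asns is added because it is the gene of the ATF4 list, described further on, that passed the threshold.
Slc7a11, chr3:50443642-50443690, minus strand: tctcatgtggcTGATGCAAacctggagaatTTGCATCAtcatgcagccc
Slc1a4, chr11:20332699-20332728, minus strand: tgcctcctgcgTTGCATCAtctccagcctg
Slc7a7, chr14:54417927-54417956, minus strand: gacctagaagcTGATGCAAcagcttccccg
Asns, chr6:7693214-7693243, minus strand: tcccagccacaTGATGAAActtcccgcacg

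Counted from the annotated start, Slc7a11 held 2 cores in its window, from positions -66 and -47, and the core of Slc1a4 spanned the start itself. In Slc7a7 the printed core spanned the start of one annotated transcript and began at position -243 from that of another. A second core of the first window, not printed, began at -141. The core of Asns began at -23. These are matches of letters, not measured binding. The 3 transporter genes with a core differed by -0.23 (Slc7a11), 0.097 (Slc1a4) and -0.048 (Slc7a7), and none passed. Of the 25 genes of the ATF4 list with a window 6 held a core (24%), Asns among them. Atf3 differed by -0.35, Chac1 by -0.34, Nupr1 by 0.049 and Vldlr by 0.50, and none of these passed. Pycr1, which also held a core, was not measured. Whether a core goes with a difference was not tested.

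The cationic amino acid carriers of the Slc7 family feed arginine and lysine to cells. Slc7a1 (CAT1) differed by 0.043 (95% interval -0.26 to 0.35) and Slc7a2 (CAT2) by 0.079 (-0.19 to 0.35), both with overlapping groups. Slc7a3 and Slc7a4, together with Slc7a12 and Slc7a15, lay below the receptor percentile in each population and differed by between -0.12 and 0.12. Slc7a14, a CAT-like protein, was the 1 gene of 15 in the Slc7 family with an unadjusted p under 0.05. It read 5.91, 5.87 and 5.63 in CD73+CD105- and 5.36, 5.58 and 5.47 in CD73+CD105+ arrays. The groups did not overlap, but both means (5.81 and 5.47) lay below the receptor percentile. The difference was -0.34 (SE 0.10, limma adjusted p = 0.152), and -0.23 in replicates 2 and 3 alone (limma adjusted p = 0.633).

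Slc36 carriers move small amino acids together with protons. Slc36a1 (PAT1), which exports amino acids from lysosomes, had the largest positive difference of the 60 members. It read 6.26, 6.11 and 6.66 in CD73+CD105- and 6.91, 6.93 and 6.74 in CD73+CD105+ arrays. The groups did not overlap, with CD73+CD105- replicate 3 close to the CD73+CD105+ arrays. The difference was 0.51 (SE 0.14, limma adjusted p = 0.129), or 1.43-fold, and 0.45 in replicates 2 and 3 alone (limma adjusted p = 0.567). Without CD73+CD105- replicate 3 it was 0.67 and its adjusted p in limma was 0.0399, in a range of 0.0343 to 0.567 over the 15 alternatives. In the RefSeq table Slc36a2 lies next to it and Slc36a3 beyond that, with no other protein-coding gene between. They differed by 0.012 and -0.047, and Slc36a4, whose arrays ranged from 8.31 to 9.30 in CD73+CD105- cells, by 0.040. The Slc36a4 value has no settled direction: it was -0.37 in replicates 2 and 3 alone, 0.31 with array weights and between -0.21 and 0.28 with 1 array left out. Of 12 pan-endothelial markers measured in the same arrays 10 rose past the threshold, against 270 of all 19938 genes. Their median difference was 1.23. Their mean level per array was 6.01 to 6.27 in CD73+CD105- against 7.92 to 8.16 in CD73+CD105+ cells. Reticular stroma markers (6 of 9, median 0.93) and pericyte and smooth muscle markers (4 of 8, median 0.62) rose as well. The part of any of these cell types in the Slc36a1 value was not tested.

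The Slc1 family holds the glutamate carriers and the neutral exchangers ASCT1 (Slc1a4) and ASCT2 (Slc1a5, a main glutamine carrier of dividing cells). None of the 7 had an unadjusted p under 0.05. Slc1a5 read 9.24, 9.44 and 9.33 against 9.40, 9.21 and 9.22, with overlapping groups and a difference of -0.056 (SE 0.088, 95% interval -0.26 to 0.15), which was above 0 with array weights. Slc1a1, the glutamate and cysteine carrier EAAT3, read 5.95, 6.15 and 6.12 against 6.48, 6.37 and 6.05, with overlapping groups, and differed by 0.23 (SE 0.12, limma adjusted p = 0.387). Slc1a3 (GLAST), a glutamate carrier also found in bone and cartilage cells, differed by -0.075 and Slc1a4 by 0.097. Slc1a2, Slc1a6 and Slc1a7, known mainly from nervous tissue and retina, lay below the receptor percentile in each population.

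In the Slc6 family 1 of 18 genes had an unadjusted p under 0.05, and 9 lay below the receptor percentile in each population. Slc6a6, the taurine transporter, read 10.07, 10.25 and 10.01 in CD73+CD105- and 10.23, 10.22 and 10.06 in CD73+CD105+ arrays, with overlapping groups and a difference of 0.061 (SE 0.090, 95% interval -0.15 to 0.27). Slc6a12 (BGT1) takes up betaine, an osmolyte, and GABA. It read 8.90, 9.28 and 8.49 against 8.34, 8.92 and 7.49. CD73+CD105+ replicate 3 was the lowest array by a wide margin, and CD73+CD105+ replicate 2 lay among the CD73+CD105- arrays. Its difference of -0.64 was the largest in size of the 60, with the largest standard error as well (SE 0.36, 95% interval -1.48 to 0.20, limma adjusted p = 0.404). With 1 array left out the difference ranged from -0.98 to -0.26, the latter without CD73+CD105+ replicate 3. In replicates 2 and 3 alone it was -0.68 (limma adjusted p = 0.725). With the replicate number as a block its adjusted p in limma was 0.12.

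Slc6a15, a carrier of branched-chain amino acids and proline known from neurons, was the 1 Slc6 gene with an unadjusted p under 0.05. It read 4.25, 4.43 and 4.44 in CD73+CD105- and 4.92, 4.48 and 4.99 in CD73+CD105+ arrays, all below the receptor percentile. The groups did not overlap, by a narrow gap to CD73+CD105+ replicate 2. The difference was 0.42 (SE 0.14, limma adjusted p = 0.184), and 0.30 in replicates 2 and 3 alone (limma adjusted p = 0.66). Without CD73+CD105+ replicate 2 it was 0.58 with an adjusted p of 0.0442 in limma, in a range of 0.0442 to 0.66 over the 14 alternatives that tested it.

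The other named Slc6 genes did not pass. Slc6a11 (GAT3, a GABA carrier) differed by -0.30 (SE 0.16, limma adjusted p = 0.375), CD73+CD105- replicate 2 at 6.63 standing above the other 5 arrays, without which the difference was -0.12. Slc6a2, the noradrenaline transporter, differed by 0.20 (SE 0.23), with CD73+CD105+ replicate 3 at 7.22 and the other 5 arrays between 6.25 and 6.68. Without that array it differed by -0.078. The glycine transporter gene Slc6a9 differed by -0.039 and the creatine transporter gene Slc6a8 by -0.017, both with overlapping groups. Slc6a9 was at 0.096 with array weights.

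Slc43a2 (LAT4, which lets branched-chain amino acids and phenylalanine pass) read 6.48, 6.54 and 6.55 against 6.66, 6.67 and 6.64. The groups did not overlap and the spread within each was small, yet the difference was 0.14 (SE 0.063, limma adjusted p = 0.322). Slc43a1 (LAT3) differed by -0.099, with overlapping groups. Slc43a3, whose product moves purine nucleobases rather than amino acids, stood at 10.46 ± 0.15 against 10.18 ± 0.32 (SD, n = 3 each), a difference of -0.28 (SE 0.16, adjusted p = 0.426). Its lowest array was CD73+CD105+ replicate 3 at 9.81, without which the difference was -0.096.

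Weighting the arrays by their scatter, which limma estimates from these same values, was the 1 alternative that moved several members past the threshold. With limma's array weights, which ranged from 0.612 to 2.44, 4 members passed, Slc36a1 and Slc6a15 higher and Slc38a7 and Slc7a14 lower. That was 6.67% of the members, against 6.68% of all genes under the same weights. The differences of the 4, in the order named, were 0.58, 0.53, -0.35 and -0.43 with the weights. In replicates 2 and 3 alone they were 0.45, 0.30, -0.23 and -0.23, each smaller in size, and none passed there. Whether the weights lean on the replicate 1 pair described above was not tested.

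Genes of amino acid use and sensing were described beside the carriers in 8 lists, with 144 measured genes in all. Of these 144, 2 passed in limma, where 1.82% of all genes tested passed in either direction. Both were lower in CD73+CD105+ cells, against 0.466% of all genes in that direction. None rose, against 270 of all 19938 genes. The median difference was -0.068, against -0.020 over all genes. At an unadjusted p under 0.05 there were 33 (22.9%, against 17.7% of all genes), 22 of them lower.

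Asns, asparagine synthetase, which makes asparagine from aspartate and glutamine and is a classic ATF4 target, read 9.66, 9.56 and 9.84 in CD73+CD105- and 8.95, 9.14 and 9.16 in CD73+CD105+ arrays. All CD73+CD105- arrays lay well above all CD73+CD105+ arrays. It fell by 0.61 on the log2 scale (SE 0.099, limma adjusted p = 0.0331), or 1.52-fold. It passed under 6 of 15 alternatives, with adjusted p-values from 0.0118 to 0.342, and under none that left out an array. In replicates 2 and 3 alone the difference was -0.56 (limma adjusted p = 0.342), and with a batch term for replicate 1 the adjusted p was 0.0862.

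Bcat1, the cytosolic aminotransferase that starts the breakdown of leucine, isoleucine and valine, read 9.56, 9.57 and 9.66 against 9.06, 9.14 and 9.09. The arrays of each population lay within a narrow band, and the bands were far apart. It fell by 0.50 (SE 0.066, limma adjusted p = 0.0176), or 1.42-fold, and passed under 8 of 15 alternatives (adjusted p from 0.00685 to 0.298). Of the 6 fits that left out 1 array 2 kept its call, those lacking CD73+CD105- replicate 3 or CD73+CD105+ replicate 2. In replicates 2 and 3 alone the difference was -0.50 (limma adjusted p = 0.298), and with the batch term the adjusted p was 0.0747.

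Of 26 measured amino acid response genes 1 fell, Asns, 0 rose and 25 did not pass, with a median of -0.079. Over all genes 1.82% passed in either direction. Differences below 0 numbered 22 (84.6%, against 55.6% of all genes). An unadjusted p under 0.05 was found in 6 (23.1%, against 17.7% of all genes). Cth, which makes cysteine from cystathionine, differed by -0.57 (SE 0.23, limma adjusted p = 0.266), CD73+CD105- replicate 2 at 7.46 standing above the other 5 arrays. Of 14 genes of branched-chain catabolism 1 fell, Bcat1, and 0 rose (median -0.062). There 4 had an unadjusted p under 0.05 (28.6%, against 17.7% of all genes). Hibch, a hydrolase of the valine pathway, was at 0.42 and missed the threshold (limma adjusted p = 0.113).

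In the other 6 lists no gene passed (0 in limma), with 7, 6, 1, 4, 4 and 2 genes at an unadjusted p under 0.05 in the order given here. Those were 29.2%, 18.8%, 5.88%, 28.6%, 30.8% and 25% of the lists, against 17.7% of all genes. Among 24 other amino acid carriers the median was -0.11, with the lysosomal cystine exporter Ctns at 0.37 and the mitochondrial aspartate and glutamate exchanger Slc25a13 at -0.36. Among 32 genes of amino acid sensing upstream of mTORC1 the median was -0.049. Flcn, folliculin, which acts on the Rag GTPases, differed by 0.50 (SE 0.093, limma adjusted p = 0.0516) and the arginine sensor Castor1 by -0.40. Flcn was past the threshold with the arrays quantile normalized again (limma adjusted p = 0.0388) and with arrays centred on their medians (0.0353). It also passed with array weights (0.0362) and among genes above the receptor percentile (0.0452). It did not pass with a batch term for replicate 1 (limma adjusted p = 0.138), with the replicate block (0.132) or in replicates 2 and 3 alone (0.251). Nor did it with any 1 array left out (0.0788 to 0.154). The 17 aminoacyl-tRNA synthetases, which charge tRNAs with amino acids, had a median of -0.065, from -0.22 for Farsa to 0.23 for Wars.

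Among 14 glutamine, glutamate and glutathione enzymes the median was 0.013. Gss, glutathione synthetase, differed by -0.51 (SE 0.098, limma adjusted p = 0.0532) and Got1, the cytosolic aspartate aminotransferase, by -0.41. Gss passed with array weights (limma adjusted p = 0.0161), among genes above the receptor percentile (0.0465) and without CD73+CD105- replicate 3 (0.0294). It did not with a batch term for replicate 1 (limma adjusted p = 0.146) or in replicates 2 and 3 alone (0.405). The 13 arginine, proline and polyamine enzymes had a median of -0.10, with the nitric oxide synthase gene Nos1 at -0.35 and the spermidine synthase gene Srm at -0.32. In the 8 genes of taurine and cysteine metabolism the median was -0.038, Cth counting here as well. Fmo1, a monooxygenase that can oxidise hypotaurine to taurine, differed by 0.76 (SE 0.16, limma adjusted p = 0.0673). With the replicate number as a block its adjusted p in limma was 0.0434, and with array weights 0.0232. It did not pass with a batch term for replicate 1 (limma adjusted p = 0.152) or in replicates 2 and 3 alone (0.395). Nor did it with any 1 array left out (0.0528 to 0.204).

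**Figure D4:**
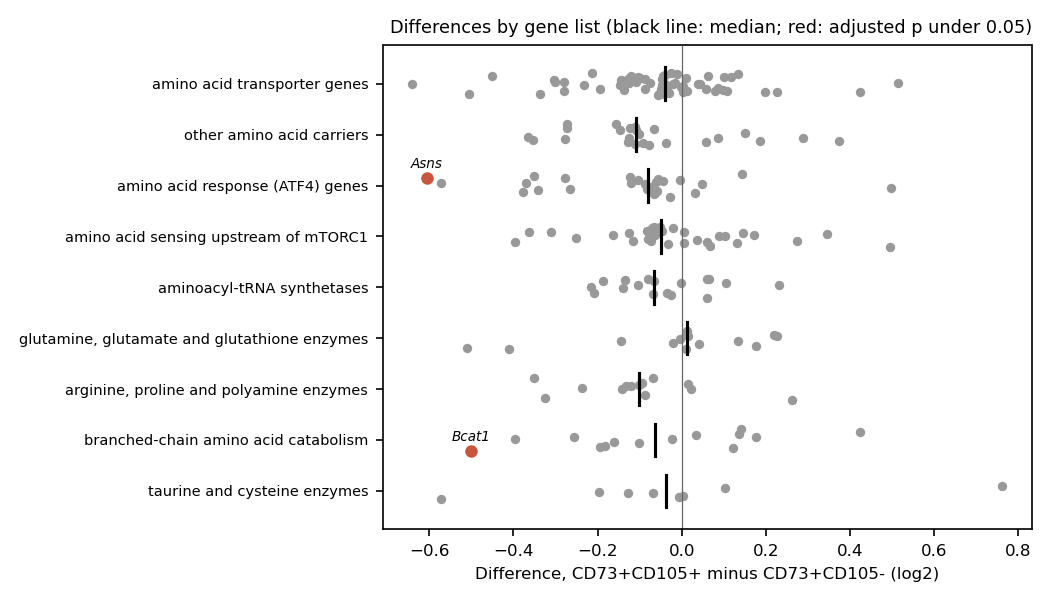
Difference between the populations (log2, CD73+CD105+ minus CD73+CD105-, x axis) for each of the 60 transporter genes and for the genes of 8 related lists (points, spread vertically for legibility; a gene in 2 lists is drawn in each), with the median of each list as a black line. Asns (-0.61) and Bcat1 (-0.50), in red, are the genes past an adjusted p of 0.05.

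Of the markers of cells that the sort should remove, 18 of 27 lay below the receptor percentile in each population. Of the 8 macrophage and monocyte markers 5 lay below the receptor percentile in each population, as did 6 of 8 neutrophil and mast cell markers, 4 of 6 lymphocyte markers and 3 of 5 erythroid markers. Those above it in at least 1 population were Cd68 (6.89 and 7.05 in CD73+CD105- and CD73+CD105+ cells), Cd14 (6.51 and 6.64), Lyz2 (5.64 and 6.01, just above it), S100a9 (7.26 and 7.28), S100a8 (6.28 and 6.45), Cd3e (6.59 in each), Cd79b (6.14 and 6.02), Epor (6.41 in CD73+CD105- cells, lower in the others) and Slc4a1 (6.37 and 6.34). None of these 4 lists held a gene past the threshold (0 in limma). At an unadjusted p under 0.05 there were 1, 0, 1 and 0 (12.5%, 0%, 16.7% and 0%, against 17.7% of all genes). In the stromal lists 6 of 9 reticular stroma markers rose (median 0.93), as did 4 of 8 pericyte and smooth muscle markers (median 0.62). Over all genes 270 of 19938 passed in that direction. None of 5 osteoblast markers passed (0 in limma, median 0.17), and 2 had an unadjusted p under 0.05 (40%, against 17.7% of all genes). Of 5 megakaryocyte markers 1 rose, Vwf (1.83), which endothelial cells also use, while Pf4, Ppbp and Gp9 lay below the receptor percentile in each population. Of 6 adipocyte markers 2 rose, Lpl and Adipoq, the latter also counted among the reticular stroma markers, and the differences of Plin1, Cidec, Lep and Retn lay below 0. The part of these cell types in the transporter values was not tested.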

How the data were processed

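Total RNA of 6 sorted samples was biotin-labelled and hybridised, 1 array a sample, per the labels. The deposited values are log2 expression values that the authors made with RMA, per the submitters' processing notes, a method that corrects background, quantile normalizes arrays and summarises probes. The RMA version and genome build were not given in the sources used here. Detection calls and scanner output were not used. Of 35556 probe sets, 21789 had 1 gene symbol (1621 several, 12146 none). The probe set with the highest mean was kept for each gene, which gave 19938 genes. Groups and replicate numbers came from the titles. Promoter sequences are RefSeq's (GRCm38.p6). The number of arrays limits the precision.

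Differences were fitted in limma 3.58.1 (R 4.3.3; lmFit, eBayes, two-sided, no block), with Benjamini-Hochberg adjustment over all 19938 genes and a threshold of 0.05. The fit was tested on simulated data for this comparison and 19938 genes: 82% of changes of 1 on the log2 scale and 97% of changes of 2 were recovered. The simulated scatter was drawn for each array separately from the spread within groups, with no replicate 1 pattern. Changes below 1 were not simulated. The members differed by -0.64 to 0.51, so the recovery of differences of their size is not known. The members, the 8 pathway lists, the 11 marker lists and the alternatives were chosen with earlier results of these data known. Members named with values are those at an unadjusted p under 0.05, the 10 highest means, the 5 largest differences each way, the Slc3 genes and their partners, and of each pathway list the genes past the threshold or, under 2, those with the largest differences. Other members were named by role after their values were seen. The alternatives (the replicate block, a batch term for replicate 1, other scalings, all probe sets, a filter on low values, array weights, an intensity trend and arrays left out) are in the closing section. Slc7a15, also on a pathway list, was counted as a member only.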

Additional observations from a re-analysis of the deposited data

How the results depend on the processing

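Of the members 0 passed in all alternatives but 3: 4 with array weights, and 0 to 1 when 1 array was left out (Slc36a1 without CD73+CD105- replicate 3, Slc6a15 without CD73+CD105+ replicate 2). Members at an unadjusted p under 0.05 (8) numbered 5 of 35 among genes above the receptor percentile (14.3%, against 20.2% of all genes there). They numbered 3 in replicates 2 and 3 alone (5%, against 9.6% of all genes). With 1 array left out they numbered 5 to 10 (8.33% to 16.7%, against 11.5% to 18.9% of all genes). The 11 members without overlap became 6, 22, and 14 to 22 in these settings, where fewer genes or fewer arrays enter. Groups of fewer arrays separate more easily by chance, and the share of all genes without overlap was not counted in these settings. The median difference of the 60 members stayed between -0.0605 and -0.03 with 1 array left out. The 2 pathway genes past the threshold, Asns and Bcat1, were both lost with the replicate block (adjusted p = 0.0640 and 0.0805), where 1 other, Fmo1, passed. The count was 0 with a batch term for replicate 1, where 0.507% of all genes passed. It was 3 (with Flcn) under each other scaling (1.95% and 1.6% of all genes) and 4 above the percentile (3% of the genes there). With array weights it was 13 (6.68% of all genes), and in replicates 2 and 3 alone it was 0 (0.145%). With 1 array left out it was 0 to 3 (0.431% to 1.47% of all genes). With array weights the share of all genes thus rose as well, from 1.82%. Asns passed in 6 and Bcat1 in 8 of the 15 alternatives. The cause was not tested.

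Deviations of same-numbered arrays from their group means correlated at -0.883, 0.00659 and 0.104 for replicates 1, 2 and 3. The replicate 1 value follows from the pattern described above. Where the mean of that pair equals the mean of the other 4 arrays, both deviations must be opposite. It therefore cannot speak for or against pairing. The main fit did not take the numbers as pairs, and whether they are was not settled. With the replicate block 0 members passed and 7 had an unadjusted p under 0.05 (11.7%, against 13.8% of all genes), 215 of all genes passing. Of the 60 members 28 changed sign under at least 1 alternative, none of them past the threshold there and none with a difference over 0.20 in size to begin with. Among those named by the rule, the following did. With array weights Slc1a5 was at 0.0252, Slc7a10 at 0.0141 and Slc7a13 at -0.0139, and in replicates 2 and 3 alone Slc7a7 was at 0.19, Slc7a8 at 0.11 and Slc7a9 at -0.0338. With 1 array left out Slc7a7 ranged from -0.20 to 0.0699, Slc7a8 from -0.13 to 0.0582, Slc7a9 from -0.0116 to 0.12, Slc7a10 from -0.0647 to 0.0411, Slc7a13 from -0.035 to 0.0417 and Slc6a2 from -0.0778 to 0.35. With 3 arrays a group and 24 members below the receptor percentile in each population, the unadjusted 95% interval left out 0 for 8 of the 60.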
